A study of Mus musculus with 2 samples.

Results

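The CXC chemokines described here are the ligands and receptors that draw neutrophils and T cells into tissue. The genes were chosen by name: Cxcl1, Cxcl2, Cxcl3 and Cxcl5, which act on the receptor Cxcr2; Cxcl9, Cxcl10 and Cxcl11, which act on the receptor Cxcr3; the 2 receptors themselves; and Cxcl16, the ligand of Cxcr6. They are 10 of the 52636 Ensembl genes counted in the 2 libraries of the series. The rule itself uses no measured value. The ligands of Cxcr2 were set against the ligands of Cxcr3, and the knockout against the wild type.

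Both libraries hold liver RNA of C57BL/6 mice that were 9 weeks old. One library is from wild-type mice (WT) and one from mice without Gbp5 (GBP5-/-, here KO), an interferon-induced GTPase of the guanylate-binding protein family. Every mouse of both groups had received D-galactosamine (GalN, 800 µg per g body weight) and lipopolysaccharide (LPS, 100 ng per g body weight) and was sampled 6 h later, so neither library is an untreated baseline. Galactosamine drains the uridine nucleotides of hepatocytes, which then make little RNA and die readily of the cytokines that LPS, a component of the bacterial wall, calls forth. Each library is 1 pool of RNA from 4 livers per group, and the way the Gbp5 allele was made is not described in the sources used here.

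With 1 library per genotype there is no spread between animals to test against and no p-value can be given. Each KO to WT ratio below is a ratio of CPM, a gene's count per 1000000 reads on genes, with an exact 95% interval, which covers counting error only and compares the 2 pools, not the genotypes. Reads are not independent molecules, so even this interval is a lower limit on the error. The WT library held 19864848 reads on genes and the KO library 15750875, so that 3 reads, the limit that a count of 0 allows, are 0.151 CPM in WT and 0.190 CPM in KO. Gbp5 itself had 3211 WT and 873 KO reads, which was 2.92-fold lower in the library labelled KO, and reads of the gene remained there.

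CXC chemokines are small secreted proteins with a pair of cysteines separated by 1 residue, and their receptors couple to inhibitory G proteins. The ligands of Cxcr2 are made within hours of Toll-like receptor, tumour necrosis factor or interleukin-1 signalling, largely through NF-kB, and recruit neutrophils into the sinusoids of the injured liver. The ligands of Cxcr3 are made in response to interferons, in part through IRF1, often together with NF-kB, and recruit activated T cells and natural killer (NK) cells. Cxcl16 exists as a membrane-bound and a shed form and retains lymphocytes that carry Cxcr6.

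The 7 secreted ligands of both classes lie on mouse chromosome 5 (GRCm38, GENCODE M21) within 1.61 Mb. The Cxcr2 ligands are in the stretch chr5:90759360-90905938, all on the plus strand, and the Cxcr3 ligands in chr5:92321347-92365485, all on the minus strand. Cxcr2 is at chr1:74153989-74161246, Cxcr3 at chrX:101731535-101734269 and Cxcl16 at chr11:70453983-70459984. The sequences just before the gene starts are shown because 3 Cxcr2 ligands share a motif there that the other class holds once. RefSeq's GRCm38.p6 table had a start for 7 of the 10 genes and not for Cxcl5, Cxcl11 and Cxcl16. These starts lie inside the GENCODE spans of Cxcl1, Cxcl2, Cxcr2 and Cxcr3, so part of each of those windows is within the span. The GENCODE span of Cxcl2, for example, begins at chr5:90903871. The 150 bases before the starts of Cxcl1 (chr5:90891095-90891244), Cxcl2 (chr5:90903749-90903898) and Cxcl3 (chr5:90785951-90786100) are printed 5′ to 3′ on the gene's strand, and capitals mark every match to the motifs named in the next paragraph.
Cxcl1: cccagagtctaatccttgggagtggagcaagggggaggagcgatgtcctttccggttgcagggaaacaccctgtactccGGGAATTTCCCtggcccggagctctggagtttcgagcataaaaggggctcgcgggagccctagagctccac
Cxcl2: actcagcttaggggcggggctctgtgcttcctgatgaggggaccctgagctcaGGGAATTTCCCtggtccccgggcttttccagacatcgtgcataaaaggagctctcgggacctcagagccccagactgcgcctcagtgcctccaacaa
Cxcl3: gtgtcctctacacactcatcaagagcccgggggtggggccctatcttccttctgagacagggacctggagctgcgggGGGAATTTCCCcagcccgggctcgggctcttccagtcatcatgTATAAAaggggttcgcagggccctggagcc
For the interferon-driven pair, the 250 bases before the starts of Cxcl10 (chr5:92348890-92349139, minus strand) and Cxcl9 (chr5:92328080-92328329, minus strand) are printed in the same way.
Cxcl10: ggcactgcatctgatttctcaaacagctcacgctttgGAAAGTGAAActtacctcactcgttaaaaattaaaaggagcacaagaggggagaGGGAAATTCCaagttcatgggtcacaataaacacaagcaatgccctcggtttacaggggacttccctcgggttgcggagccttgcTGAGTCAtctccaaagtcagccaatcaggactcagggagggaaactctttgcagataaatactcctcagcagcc
Cxcl9: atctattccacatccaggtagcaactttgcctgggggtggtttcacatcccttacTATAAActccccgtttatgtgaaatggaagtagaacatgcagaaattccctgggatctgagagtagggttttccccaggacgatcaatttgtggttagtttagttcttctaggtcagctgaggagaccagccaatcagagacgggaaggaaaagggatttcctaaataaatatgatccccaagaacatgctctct

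Motifs, 4 in all, were searched on both strands of the 250 bases before each start: the kB motif (GGGA and TTCC with any 2 bases between them), an interferon-stimulated element (2 copies of GAAA with any 2 bases between them), an AP-1 motif (TGANTCA) and a TATA motif (TATAAA). The kB motif was in 4 of the 7 windows and in 1.21% of all 32851 promoters searched. Cxcl1, Cxcl2 and Cxcl3 held the same letters, GGGAATTTCC, at bases -71 to -62, -97 to -88 and -73 to -64. Here -1 is the last base before the RefSeq start. In each of the 3, a match on the other strand overlapped GGGAATTTCC in all but 1 base. Cxcl10 held GGGAAATTCC at -159 to -150, an interferon-stimulated element GAAAGTGAAA at -213 to -204 (in 2.98% of all promoters) and an AP-1 motif at -74 to -68 (in 6.75%). The TATA motif (in 12.4%) was at -30 in Cxcl3 and at -195 in Cxcl9. The windows of Cxcr2 and Cxcr3 held none of the 4. These are matches of letters and say nothing of whether a factor was bound.

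The 3′ untranslated regions of Cxcl1, Cxcl2 and Cxcl3 are also set apart by repeats of ATTTA, the pentamer of AU-rich elements that mark short-lived inflammatory mRNAs. This search was chosen after the ratios were known. The stretches of at most 30 bases with the most copies are printed from the GENCODE transcripts with each ATTTA in capitals, and the stretch of Cxcl10 is printed beside them.
Cxcl1: gtcctATTTATTTAtgtATTTATTTAttcc
Cxcl2: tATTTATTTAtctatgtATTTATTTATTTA
Cxcl3: gcatcttATTTAatgtttATTTAatatcaa
Cxcl10: tgtaagactacaaATTTAagtttgtaagga
Counted over the whole region, Cxcl2 held 11 copies in 734 bases, Cxcl1 7 in 592, Cxcl3 5 in 645 and Cxcl5 5 in 1111. The density was above that of 99.7%, 99.5%, 97.6% and 89.6% of 19333 genes in the same order. Cxcl10 held 2 copies in 729 bases, Cxcl9 3 in 2452 and Cxcl11 1 in 1218, against a median of 1.30 copies per kb over all genes. The Cxcr2 ligands therefore all had a higher ATTTA density than any of the 3 Cxcr3 ligands.

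Cxcl1 and Cxcl2, the main neutrophil attractants of the mouse, were the only members with more CPM in KO than in WT. Cxcl1, also called KC, had 3127 WT and 3408 KO reads, or 157 and 216 CPM. The KO library had more reads of it in absolute number as well, although it was the shallower one. The ratio was 1.37 with an interval of 1.31 to 1.44, and 82.6% of all tested genes (those at 1 CPM or more in either library) had a lower one. Cxcl2, or MIP-2, made by macrophages and neutrophils, had 5765 and 5437 reads, or 290 and 345 CPM. Its ratio was 1.19 (1.15 to 1.23), above that of 70.5% of tested genes. Within the pair the share of Cxcl1 was 35.2% of the reads in WT and 38.5% in KO.

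The other Cxcr2 ligands, both at under 10 CPM, lay on the other side. Cxcl3, a close relative of Cxcl2, had 162 WT and 78 KO reads, or 8.16 and 4.95 CPM, and was 1.65-fold lower in KO (1.25 to 2.19). Cxcl5, in mice a product of epithelium and platelets, had 171 and 108 reads, or 8.61 and 6.86 CPM. It was 1.26-fold lower with an interval of 0.981 to 1.61, which holds 1, so that a difference was not detectable at this depth. Summed, Cxcl3 and Cxcl5 went from 16.8 to 11.8 CPM, 1.42-fold lower (1.18 to 1.71). The class was thus divided by level: its abundant members were higher in KO and its scarce members had ratios below 1.

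Cxcl2 and Cxcl3 are alike enough that reads could be credited to the wrong one. Their coding sequences are 89.8% identical and share an unbroken run of 110 bases, whereas Cxcl1 shares at most 23 bases with either and every other pair of ligands at most 15. Cxcl2 had 35.6 times as many reads as Cxcl3 in WT and 69.7 times as many in KO. The sources used here do not give how the counting treated reads with more than 1 place. The sum of both, which does not depend on the split, was 298 CPM in WT and 350 CPM in KO, a ratio of 1.17 (1.13 to 1.22).

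**Figure D1:**
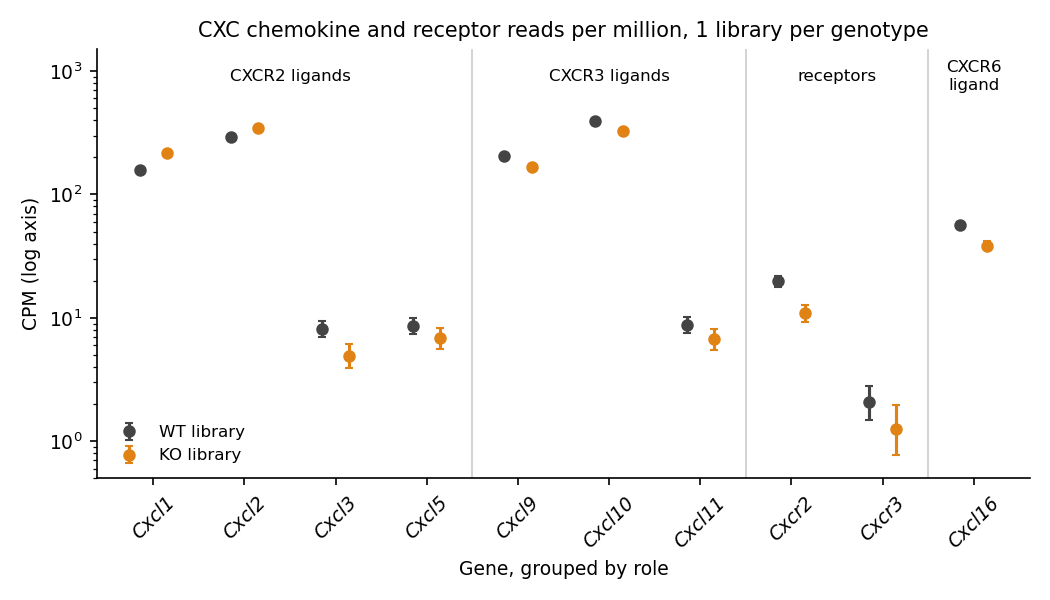
Level in CPM (log axis) of the 10 genes in the WT (grey) and the KO (orange) library, 1 pool of 4 livers each; bars are exact 95% Poisson intervals and are mostly smaller than the points. Cxcl1 and Cxcl2 sit higher in KO and the other 8 genes lower.

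All 3 ligands of Cxcr3 had fewer CPM in KO, by nearly the same factor. Cxcl9, or MIG, induced by interferon-gamma in macrophages and endothelium, had 4094 WT and 2630 KO reads, or 206 and 167 CPM. Cxcl10, or IP-10, induced by type I and type II interferon, had 7872 and 5187 reads, or 396 and 329 CPM. The libraries differed 1.23-fold for Cxcl9 (1.17 to 1.30) and 1.20-fold for Cxcl10 (1.16 to 1.25). Cxcl11 had 174 and 106 reads, or 8.76 and 6.73 CPM, and was 1.30-fold lower (1.02 to 1.67). GENCODE lists mouse Cxcl11 as a polymorphic pseudogene, since its reading frame is interrupted in the C57BL/6 reference, so no full-length ligand is made from this RNA in that strain.

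The proportions among the Cxcr3 ligands were alike in both libraries. Cxcl10 made up 64.8% of their reads in WT (64.0 to 65.7) and 65.5% in KO (64.4 to 66.5), Cxcl9 33.7% and 33.2%, and Cxcl11 1.43% and 1.34%. The read ratio of Cxcl9 to Cxcl10 was 0.520 in WT and 0.507 in KO, and its KO to WT quotient was 0.975 (0.917 to 1.04). All 3 quotients within this class had intervals that hold 1. Among the Cxcr2 ligands, 5 of 6 did not: Cxcl1 to Cxcl3 gained 2.26-fold in KO (1.71 to 3.02), Cxcl2 to Cxcl3 1.96-fold (1.48 to 2.61) and Cxcl1 to Cxcl2 1.16-fold (1.09 to 1.23). Cxcl3 to Cxcl5 was the exception, at 0.762 (0.522 to 1.11).

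Cxcl16, the membrane-bound ligand of Cxcr6, had 1130 WT and 607 KO reads, or 56.9 and 38.5 CPM. It was 1.48-fold lower (1.34 to 1.63), a greater distance from 1 in CPM than that of Cxcl9 or Cxcl10. After the correction for GC content and length described below, Cxcl16 and Cxcl9 were both at a log2 ratio of -0.56, and Cxcl10 at -0.41. The spans of Cxcl16 and of Zmynd15 on the opposite strand overlap by 552 bases, and Cxcl10 and Cxcl11 lie within the span of Art3, also on the opposite strand. Whether their exons overlap was not examined. Art3 had 98 WT and 108 KO reads and Zmynd15 466 and 186. The sources used here do not give whether the counting used strand.

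Set against each other in CPM, the classes went in opposite directions while their total stayed level. The Cxcr2 ligands together went from 464 CPM in WT to 573 in KO, a ratio of 1.23 (1.20 to 1.27). The Cxcr3 ligands went from 611 to 503 CPM, 1.21-fold lower (1.18 to 1.25). The 7 ligands summed to 1076 CPM in each library, with an interval of the ratio, 0.981 to 1.02, that holds 1. This total was not computed after the correction for GC content and length. The Cxcr2 ligands were 43.2% of the reads of these 7 genes in WT (42.5 to 43.8) and 53.3% in KO (52.5 to 54.0), so the larger class in WT was the smaller in KO.

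**Figure D2:**
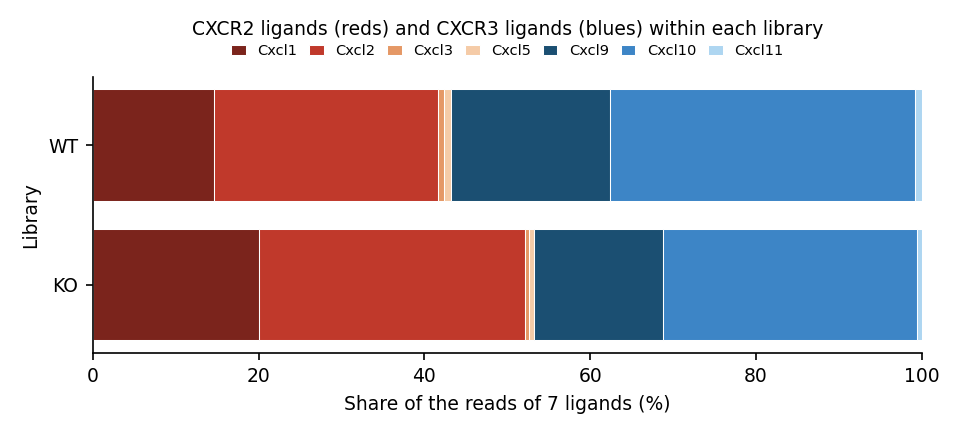
Share of each ligand in the summed reads of the 7 ligands (%), in the WT and the KO library; reds are Cxcr2 ligands and blues Cxcr3 ligands, and each bar is 1 pool. The reds cover 43.2% of the WT bar and 53.3% of the KO bar, and almost all of both classes is Cxcl1, Cxcl2, Cxcl9 and Cxcl10.

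The comparison within a library does not depend on how the libraries are scaled. There were 0.760 reads of Cxcr2 ligands per read of a Cxcr3 ligand in WT and 1.14 in KO, a quotient of 1.50 (1.44 to 1.56). Of the 12 pairs of a Cxcr2 and a Cxcr3 ligand, the 6 with Cxcl1 or Cxcl2 had quotients above 1, from 1.43 for Cxcl2 to Cxcl10 up to 1.79 for Cxcl1 to Cxcl11. The 3 pairs with Cxcl5 had intervals that hold 1. Cxcl3 went the opposite way, with quotients of 0.749 to Cxcl9 (0.562 to 0.993) and 0.731 to Cxcl10 (0.549 to 0.966), and an interval that holds 1 to Cxcl11. The quotient of the classes therefore rests on Cxcl1 and Cxcl2. Without them it was -0.22 on the log2 scale against 0.58 with them, and without Cxcl1 alone it was 0.50. No interval was computed for -0.22, which rests on only 333 WT and 186 KO reads of Cxcr2 ligands, so a reversal was not tested. These omissions were chosen after the values were seen.

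Levels of different genes were compared as FPKM, the CPM of a gene per kilobase of its exons, with 1 read taken as 1 fragment. In WT the order was Cxcl10 at 176 FPKM, Cxcl2 at 140, Cxcl1 at 84.0, Cxcl9 at 68.3, Cxcl16 at 18.8, Cxcr2 at 6.51, Cxcl5 at 4.62, then Cxcl3 at 2.33 and Cxcl11 at 2.31, whose intervals overlap, and Cxcr3 at 1.19. In KO Cxcl2 at 167 FPKM stood above Cxcl10 at 146, followed by Cxcl1 at 115 and Cxcl9 at 55.4. Cxcl16 was at 12.8 FPKM in KO. Cxcl5 at 3.68 FPKM and Cxcr2 at 3.56 had overlapping intervals there, as did Cxcl11 at 1.77 and Cxcl3 at 1.42, and Cxcl3 and Cxcr3 at 0.734. The leading ligand was thus a Cxcr3 ligand in WT and a Cxcr2 ligand in KO. With the length of the principal transcript in place of all exons, an alternative added after seeing the data, the first 5 places of both libraries stayed as given and the order of the next 4 changed.

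All 10 genes passed 1 CPM in at least 1 library, and none differed 2-fold in CPM. Of the 14055 genes tested, 12.4% were at least 2-fold lower in KO and 4.63% at least 2-fold higher. Intervals lay below 1 for 6 members (Cxcl3, Cxcl9, Cxcl10, Cxcl11, Cxcr2 and Cxcl16) and above 1 for 2 (Cxcl1 and Cxcl2), against 36.5% and 26.7% of all tested genes. An interval off 1 is thus common at these depths: among the 4379 genes with 1000 or more reads in both libraries together, 82.1% had one. The median log2 ratio of all tested genes was -0.06, and 54.1% of them had a ratio below 1, as did 8 of the 10 members.

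**Figure D3:**
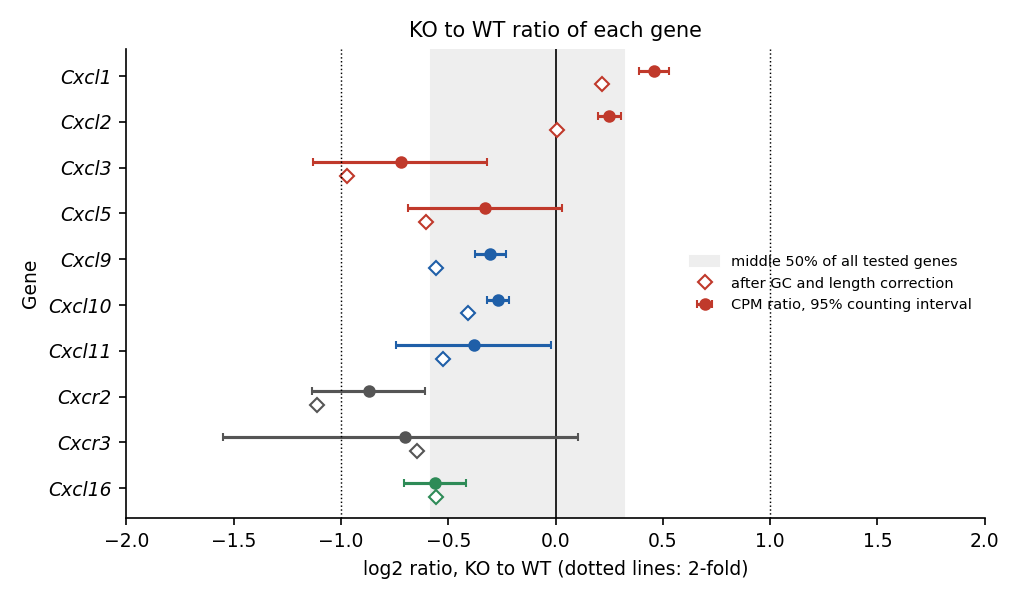
Log2 ratio of CPM, KO to WT, of each gene (filled points, with exact 95% counting intervals) and the same after the correction for GC content and length (open diamonds); red marks Cxcr2 ligands, blue Cxcr3 ligands, grey receptors and green Cxcl16. The grey band is the middle 50% of all tested genes, from -0.58 to 0.32, and dotted lines mark 2-fold; Cxcl1 lies to the right of the band and Cxcl3, Cxcr2 and Cxcr3 to its left.

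The ratios of all genes varied with base composition. Over 10 equal groups of tested genes from the lowest GC content to the highest, the median log2 ratio went from 0.31 to -0.83. The ligands on chromosome 5 have exons of 41.3% to 47.2% GC, where most genes had ratios above 1. Each gene's log2 ratio was therefore also given after subtracting the median of genes with like GC content and length, a correction that leaves 6.59% of tested genes at least 2-fold lower and 5.13% at least 2-fold higher. After it, Cxcl1 was at 0.22, Cxcl2 at 0.01, Cxcl9 at -0.56, Cxcl10 at -0.41 and Cxcl11 at -0.52. Cxcl2 was then level with genes of its kind, and its call as higher in KO holds only without the correction.

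The distance between the classes was less touched by it than their place. After correction the summed Cxcr2 ligands were at 0.06 and the Cxcr3 ligands at -0.46 on the log2 scale, in place of 0.30 and -0.28, and their quotient was 0.52 in place of 0.58. Cxcl3 (-0.97), Cxcl5 (-0.60) and Cxcl16 (-0.56) stayed below 0. Among the 1283 genes within 1% of its GC content, Cxcl3 had a lower ratio than all but 5.53%, and Cxcr2 than all but 5.91% of 1472. Cxcl1 had a higher one than 74.5% of 1417 such genes.

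**Figure D4:**
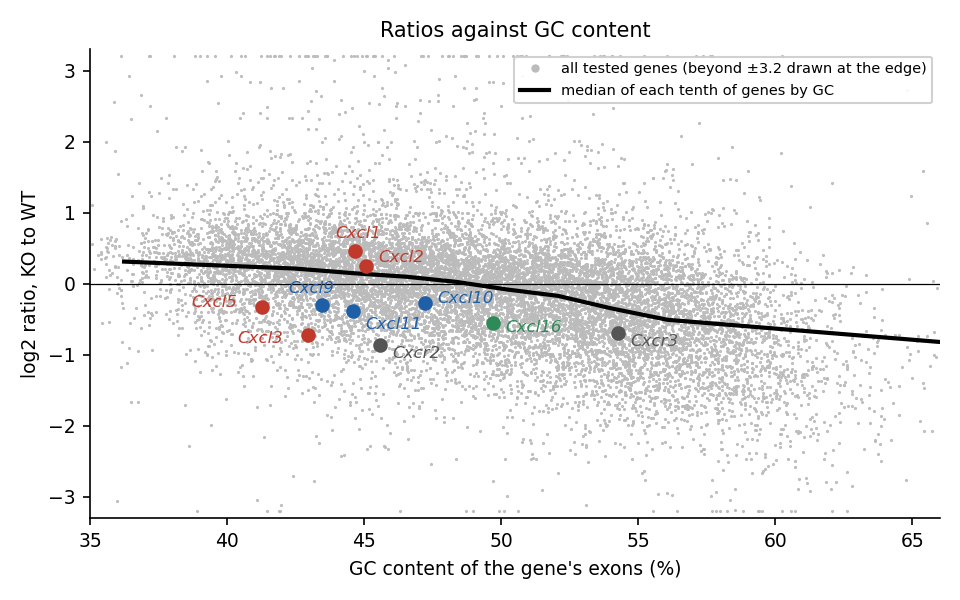
Log2 ratio of CPM, KO to WT, against the GC content of a gene's exons (%, shown from 35 to 66), for all tested genes (grey dots) and the 10 members (colours as in the plot of ratios). The black line joins the medians of 10 equal groups of genes by GC and goes from 0.31 down to -0.83; Cxcl1 and Cxcl2 sit above it and the other 8 members below.

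The receptors were scarcer than their main ligands, and both had ratios below 1, with an interval off 1 for Cxcr2 only. Cxcr2, carried mainly by neutrophils, had 394 WT and 171 KO reads, or 19.8 and 10.9 CPM. It was 1.83-fold lower (1.52 to 2.20), the farthest of the 10 genes from 1, and 2.16-fold lower after the correction for GC content and length. Cxcr3, carried by activated T cells and NK cells, had 41 and 20 reads, or 2.06 and 1.27 CPM. It was 1.63-fold lower with an interval of 0.931 to 2.93, so that a difference was not detectable at this depth. In RNA of a whole liver, fewer cells of a type and less RNA per cell cannot be told apart.

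The other neutrophil markers were not all lower with Cxcr2. Of 14 markers at 1 CPM or more, 10 had ratios below 1 and 4 above, with a median log2 ratio of -0.42 (all tested genes, -0.06), and the whole list summed to 792 CPM in WT and 705 in KO. Of the 14, 2 (Ltf and Ly6g) reached 1 CPM in WT only. No marker of the list was at 0 in both libraries, and Mpo had 3 WT reads and none in KO. Ltf, the granule protein lactoferrin, was 2.20-fold lower (1.14 to 4.51), and Csf3r, the receptor of the neutrophil growth factor G-CSF, 2.19-fold lower (2.02 to 2.38). S100a8, a calcium-binding protein that fills the neutrophil cytosol, had 1962 WT and 1624 KO reads, a ratio of 1.04 (0.977 to 1.12) with an interval that holds 1. Retnlg had a ratio of 1.11 (0.951 to 1.29) and Lcn2, which injured hepatocytes make as well, 1.21 (1.16 to 1.26). Relative to S100a8, Cxcr2 was at 0.524 in KO against WT (0.430 to 0.637). Relative to Csf3r, the quotient was 1.20, and its interval (0.979 to 1.47) holds 1. Cxcr2 was thus low beside S100a8 and not detectably different beside Csf3r, and the part of neutrophil number in the Cxcr2 ratio was not tested.

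Most markers of T and NK cells were lower in KO. The whole list, of which no marker was at 0 in both, summed to 112 CPM in WT and 50.9 in KO. Of 18 markers that reached 1 CPM, 15 had intervals below 1 (all tested genes, 36.5%) and 3 (Trac, Cd3g and Cd3e) intervals that hold 1. The median log2 ratio was -0.99, but 5 of the 18 reached 1 CPM in WT only, which fixes their direction. Trbc1, Klrb1c and Cd3e, whose values follow, are among these 5. Trbc1, a constant segment of the T cell receptor, was 4.04-fold lower (2.03 to 8.93) and Klrb1c, an NK cell receptor, 3.33-fold lower (1.22 to 11.3). Trac, the constant segment of the other chain, had 40 and 31 reads and a ratio of 0.977 (0.591 to 1.60), and Cd3g a ratio of 0.766 (0.485 to 1.19). Cd3e had 27 and 14 reads. Relative to it, Cxcr3 was at 0.941 (0.377 to 2.39), an interval too wide to tell a difference. Cxcr6, the receptor of Cxcl16 and itself a marker of resident lymphocytes, had 60 and 24 reads and was 1.98-fold lower (1.22 to 3.33).

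Kupffer cells, the resident macrophages and a source of many of these ligands, had markers that were mostly lower in KO. Of 14 markers 13 had ratios below 1 and 7 were at least 2-fold lower, with a median log2 ratio of -0.94. After the GC and length correction 5 were at least 2-fold lower and the median was -0.81. Of all tested genes, 12.4% were at least 2-fold lower before the correction and 6.59% after it. The summed level of the markers was 1594 CPM in WT and 680 in KO, with reads of every marker in both. The scavenger receptor gene Marco was 3.41-fold lower (3.22 to 3.62) and C1qc, a chain of complement C1q, 3.18-fold lower (2.95 to 3.43). Vsig4, a complement receptor, was 1.26-fold lower (1.07 to 1.48), and Slc40a1, the iron exporter, had a ratio of 1.14 (0.998 to 1.30). Clec4f, a lectin found on Kupffer cells, had 3999 and 1405 reads, 2.26-fold lower (2.12 to 2.40). Relative to Clec4f, Cxcl16 was at 1.53 in KO against WT (1.36 to 1.72), Cxcl9 at 1.83 (1.69 to 1.98) and Cxcl10 at 1.88 (1.75 to 2.01). Other markers of the list gave other quotients. Relative to Vsig4, Cxcl16 was at 0.853 (0.705 to 1.03), Cxcl9 at 1.02 (0.862 to 1.21) and Cxcl10 at 1.05 (0.887 to 1.24), all with intervals that hold 1. Relative to Slc40a1, they were at 0.594 (0.502 to 0.703), 0.710 (0.616 to 0.819) and 0.729 (0.635 to 0.837). The 3 chemokines were thus higher, level or lower per marker read depending on the marker, and the part of Kupffer cell content in their ratios was not tested.

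Markers of other liver cell types lay nearer 1 or above it. Endothelial markers had a median log2 ratio of -0.07, close to that of all tested genes, with 10 of 12 below 0. Intervals lay below 1 for 5 of the 12, near the share of all tested genes (36.5%). Stab1, a scavenger receptor of sinusoids, was 2.13-fold lower and Cdh5 1.68-fold lower, with log2 ratios of -1.09 and -0.75 that became -0.20 and -0.39 after the GC and length correction, while Kdr (1.32) and Tek (1.36) were the highest. Stellate cell and fibroblast markers had a median of -0.31, with 9 of 12 below 0: Hand2 was 3.39-fold lower (a log2 ratio of -1.76, and of -1.11 after the correction) and Col3a1 2.94-fold lower, whereas Lrat, which stores retinol, had a ratio of 1.90 and Dcn of 1.12, the latter below 1 after the GC and length correction. Hepatocyte markers had a median of 0.44, with 9 of 11 above 0. Alb, the serum albumin gene, went from 38384 to 69250 CPM, and Cyp3a11 had a ratio of 1.79, while Pck1 was 1.55-fold lower and Apoa1 had a ratio of 0.990.

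Most epithelial genes were higher in KO, as were Cxcl1 and, only before the GC and length correction, Cxcl2. Of 12 markers of cholangiocytes and simple epithelium, 9 had ratios above 1 and 4 were at least 2-fold higher. The median log2 ratio was 0.58 and the summed level 741 CPM in WT and 931 in KO. After the GC and length correction 6 were at least 2-fold higher (all tested genes, 4.63% before it and 5.13% after). Muc1, a membrane mucin, had a ratio of 5.57 (4.58 to 6.83), Cd24a of 4.37 (3.80 to 5.03), the keratin Krt19 of 4.24 (3.65 to 4.94) and Epcam of 2.17 (1.75 to 2.69), while Cldn4 and Sox9 were 1.42-fold and 1.41-fold lower. The intestinal list summed to 78.5 CPM in WT and 384 in KO, of which Dmbt1 alone was 1.01 and 274 CPM. Of its 15 genes 7 reached 1 CPM, 2 of them (Spink4 and Tff2) in KO only, which fixes their direction, and the interval of Lgals4 (0.976 to 1.27) holds 1. Dmbt1, a secreted scavenger protein, had 20 WT and 4319 KO reads, Spink4 1 and 98, Lgals4 488 and 431, and Fabp2 897 and 881, while Agr2, Cdx2, Muc2 and Reg3g had no read in either library. Of the exocrine pancreas list, Ctrb1 had 0 and 297 reads and Cela1 521 and 328, and 8 of 15 genes had no read in either. Epithelia make Cxcl1, Cxcl2 and Cxcl5, and the part of these genes' cells in the Cxcl1 and Cxcl2 ratios was not tested. Cxcl5, also an epithelial product, had a ratio of 0.797.

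**Figure D5:**
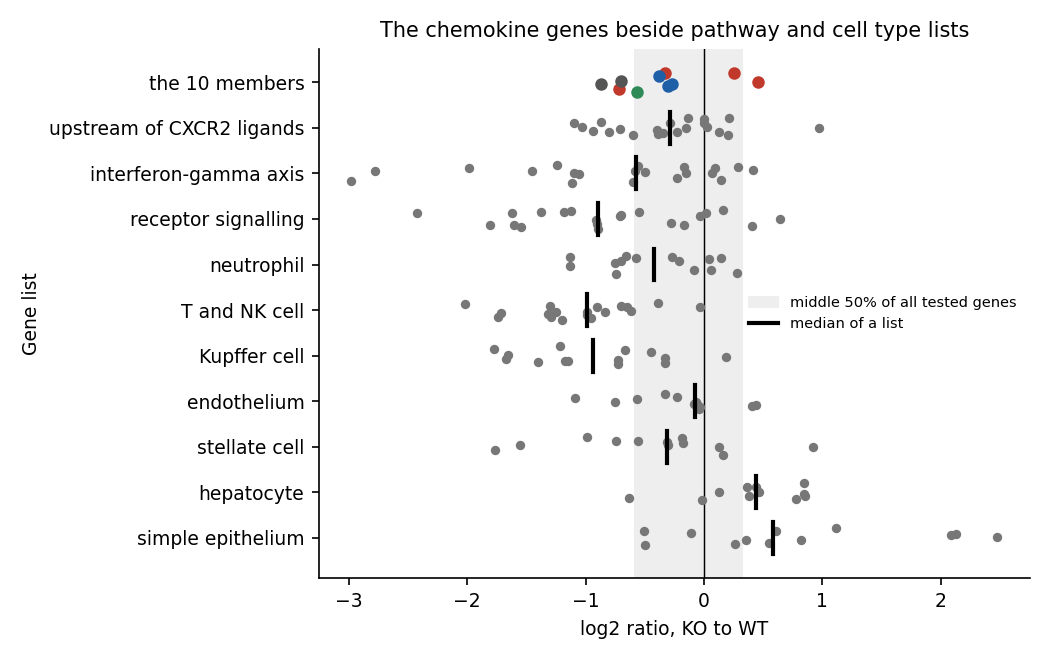
Log2 ratio of CPM, KO to WT, of the 10 members (top, colours as in the plot of ratios) and of the genes of 10 lists at 1 CPM or more (grey points, 1 per gene, spread vertically for sight); black bars are list medians and the grey band the middle 50% of all tested genes. The medians of the T and NK cell list (-0.99), the Kupffer cell list (-0.94) and the receptor signalling list (-0.89) lie to the left of the band and those of the hepatocyte (0.44) and simple epithelium (0.58) lists to its right.

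Genes of the signals that induce Cxcr2 ligands lay on both sides of 1, with Il1b, Tnf and Cd14 lower in KO. Of 21 measured genes of this list, which holds cytokines, receptors and NF-kB factors, 14 had ratios below 1 and 7 above, with a median log2 ratio of -0.29. At least 2-fold lower were 2 of them, and 1 after the GC and length correction, against the 12.4% and 6.59% of all tested genes given above; none was 2-fold higher. Il1b, a cytokine that induces Cxcl1 and Cxcl2, had 2906 WT and 1408 KO reads and was 1.64-fold lower (1.54 to 1.75). Tnf had 565 and 343 reads, 1.31-fold lower (1.14 to 1.50). Il17ra, the interleukin-17 receptor, was 2.14-fold lower (1.97 to 2.33, a log2 ratio of -1.10 and of -0.62 after the correction), and Cd14, which hands LPS to its receptor, 2.04-fold lower (1.95 to 2.13). Traf6, the ubiquitin ligase below the Toll-like and interleukin-1 receptors, had a ratio of 1.96 (1.67 to 2.30), and Irak4 of 1.16 (0.948 to 1.41). Il17a and Il17f had no read in either library. Cxcl1 and Cxcl2 thus stood higher in the library with fewer CPM of Tnf, Il1b and Cd14 and more of Traf6. Cxcl2, at a log2 ratio of 0.01, was level after the correction. The part of the genes of this list in the Cxcl1 and Cxcl2 ratios was not tested.

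In the interferon-gamma axis upstream of the Cxcr3 ligands, most genes had ratios below 1, the cytokines Il27 and Ifng among them. The factor Irf1 stood above 1. Of 20 measured genes, 15 had ratios below 1 and 8 were at least 2-fold lower, none 2-fold higher, with a median log2 ratio of -0.57. After the GC and length correction 6 were at least 2-fold lower (all tested genes, 12.4% before it and 6.59% after). Among the 20, 4 reached 1 CPM in WT only, which fixes their direction, and 1 in KO only. These 4, Ifng included, are all among the 8 and also among the 6 left after the correction. Il27, a cytokine of myeloid cells, had 169 WT and 17 KO reads, 7.88-fold lower (4.78 to 13.9). Ifng, made by T and NK cells, had 26 and 3 reads, a ratio of 0.146 with a wide interval (0.0282 to 0.475). Irf1, a transcription factor that interferon-gamma induces, had 4141 WT and 4003 KO reads and stood at a ratio of 1.22 (1.17 to 1.27). Its log2 ratio of 0.29 became 0.64 after the correction. Among the 8, Irf8 was 2.14-fold lower (1.99 to 2.30), Socs1 2.36-fold (2.18 to 2.55) and Jak2 2.08-fold (1.90 to 2.27). The log2 ratios of these 3 genes after the correction were -0.62, -0.59 and -1.20. Stat4 had 18 and 19 reads. Ifnb1 and Il12rb1 had no read in either library. Cxcl10 and Cxcl9 were 1.20-fold and 1.23-fold lower, beside ratios of 0.146 for Ifng, from 26 and 3 reads, and of 1.22 for Irf1. The part of either gene in the ratios of the Cxcr3 ligands was not tested.

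Factors that act on AU-rich mRNAs went in both directions. Of 12, 7 had ratios below 1 and 4 were at least 2-fold lower, with a median log2 ratio of -0.25. After the GC and length correction 1 was at least 2-fold lower (all tested genes, 12.4% before it and 6.59% after). Zc3h12a, or Regnase-1, an endonuclease that cleaves inflammatory mRNAs, had 1165 WT and 428 KO reads and was 2.16-fold lower (1.93 to 2.42), a log2 ratio of -1.11 that became -0.85 after the correction. Zfp36l2, a member of the tristetraprolin family, was 3.27-fold lower (2.99 to 3.57). Zfp36, tristetraprolin itself, which binds ATTTA repeats and hastens decay, had 14909 and 13438 reads and a ratio of 1.14 (1.11 to 1.16), a log2 ratio of 0.18 that became 0.85 after the correction. Elavl1, or HuR, which stabilises AU-rich mRNAs, had a ratio of 1.71 (1.51 to 1.94), and Tial1 of 1.30 (1.18 to 1.42), a log2 ratio of 0.38 that became 0.10 after the correction.

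Most genes that act below chemokine receptors in leukocytes had ratios below 1. Of 21, 17 had ratios below 1 and 8 were at least 2-fold lower, with a median log2 ratio of -0.89. After the GC and length correction 3 were at least 2-fold lower (all tested genes, 12.4% before it and 6.59% after) and the median was -0.64. Plcb2, a phospholipase that G protein beta-gamma subunits activate, was 5.37-fold lower (2.98 to 10.5) and passed 1 CPM in WT only. Prex1, an exchange factor for Rac, was 3.49-fold lower (3.10 to 3.94), a log2 ratio of -1.80 that became -0.91 after the correction. Rgs18, with 21 WT and 26 KO reads, had a ratio of 1.56 (0.845 to 2.92), and Rgs2 of 1.32 (1.17 to 1.50). Adhesion molecules for leukocytes were below 1 in 12 of 12, with a median of -0.59: Itgal was 2.42-fold and Itgb2 2.29-fold lower (log2 ratios of -0.80 and -1.04 after the correction), the 2 chains of the integrin LFA-1, while Itgb1 (0.994) and Itga4 (0.996) had ratios near 1. Enzymes that trim, citrullinate or shed chemokines had a median of -0.37 with 5 of 8 below 0. Padi4 was 2.72-fold and Padi2 2.15-fold lower, with log2 ratios of -0.78 and -0.62 after the correction, while Adam10, a sheddase of Cxcl16, had a ratio of 1.15 (0.990 to 1.34), with an interval that holds 1, and Dpp4, which trims Cxcl9, Cxcl10 and Cxcl11, of 1.21 (1.13 to 1.30). Ctsg had no read in either.

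Most of the rest of the CXC family had ratios below 1. Of 11 other CXC chemokines and receptors at 1 CPM or more, 10 had ratios below 1 and 7 of these an interval below 1 (all tested genes, 36.5%). The median log2 ratio was -0.34. At least 2-fold lower were 2, and 3 after the GC and length correction (all tested genes, 12.4% and 6.59%), and none was 2-fold higher. Cxcl12, the homeostatic ligand of Cxcr4, had 3915 WT and 3027 KO reads, a ratio of 0.975 (0.930 to 1.02), and Cxcr4 268 and 168 reads. Cxcl13, which attracts B cells, had 2019 and 1300 reads and was 1.23-fold lower (1.15 to 1.32), and its receptor Cxcr5, which reached 1 CPM in WT only, had 33 and 8. Cxcl14 had 329 and 120 reads, 2.17-fold lower (1.76 to 2.70). The platelet chemokines Ppbp, whose cleaved product acts on Cxcr2, and Pf4 had ratios of 0.998 (0.825 to 1.21) and 1.02 (0.812 to 1.29). Of the atypical receptors, which take up chemokines without signalling to G proteins, Ackr1 had 362 and 226 reads, Ackr2 84 and 39, Ackr3 148 and 93 and Ackr4 7 and 12. Cxcr1, the second neutrophil receptor, had 7 reads in WT and none in KO, Cxcl17 had none and 1, and Cxcl15 none in either. Beside these genes, Cxcl1 and Cxcl2 were the 2 CXC genes whose intervals lay above 1.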

How the data were processed

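Liver mRNA of 2 pools was measured by Illumina RNA sequencing, per the labels. TopHat2, HTSeq 0.6.1 and the build GRCm38 are named in the submitters' processing notes. The sources used here do not give the annotation release, strand setting or filters. The deposited files are named for FPKM but hold whole-number read counts per gene, read here as raw counts of the authors. Left out were rows that name no gene (0.652% of the WT and 0.496% of the KO counts).

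CPM over the 52636 Ensembl rows, KO to WT ratios and exact 95% Clopper-Pearson intervals conditional on the summed reads were computed with Python 3.11.15 and scipy 1.17.1. Quotients of read ratios have exact conditional intervals. A gene was tested at 1 CPM or more in either library, with a count of 0 put at 3 reads. GC content and length came from GENCODE M21, and the correction subtracted the median log2 ratio in 10 GC bins by 4 length bins of genes with 100 reads or more. TMM factors came from edgeR 4.0.16, used for no test. The ratio script was tested on simulated data.

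The members and the gene lists were chosen with earlier results of these data known. Named were all members, the other CXC genes, Gbp5, the 2 highest and 2 lowest measured genes of each further list, and Tnf, Il1b, Ifng, Irf1, Zc3h12a, Zfp36, S100a8, Cd3e, Clec4f, Alb, Krt19 and Epcam. Csf3r fell under the rule, whereas Art3 and Zmynd15 were added because they overlap members. Marker lists leave out Cxcr2 and Cxcr3. Added after their values were seen were Mpo, Ly6g, Tff2, Irf8, Socs1, Jak2 and genes named with no read in either library. The quotients to Vsig4 and Slc40a1, the search for ATTTA, the comparison of transcripts, principal-transcript lengths and the omissions of single ligands were chosen after seeing the data. Protein sequences were not used here. One item of the rule and of the interferon-gamma list is not reported here.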

Additional observations from a re-analysis of the deposited data

How the results depend on the processing

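The summed Cxcr2 and Cxcr3 ligands kept their directions under all scalings tried (median-ratio size factors, TMM, totals without mitochondrial genes, without the 50 most abundant genes, or over protein-coding genes), under FPKM with 1 added and under the GC and length correction. On the log2 scale the main values of 0.30 and -0.28 became 0.41 and -0.18 with totals that leave out the 50 most abundant genes, the largest shift of any scaling (0.10), and 0.062 and -0.46 with the GC and length correction. Their quotient of 0.58 became 0.52 with that correction, 0.70 without the most abundant ligand of each class and 0.23 as a mean of the members' log2 ratios. It was 0.50 without Cxcl1 and, with no interval computed, -0.22 without both Cxcl1 and Cxcl2. The quotient was 0.58 without Cxcl11 and 0.61 without Cxcl3 and Cxcl5. The 1745 genes at least 2-fold lower in KO became 926 with the GC and length correction, 785 on FPKM with 1 added and 2775 with no filter other than 1 read. The 651 at least 2-fold higher became 289, 2360 and, at 5 CPM or more, 194. Among the alternative values for single members, 62 moved by less than the counting interval and 8 by more. The 8 were Cxcl1, Cxcl2, Cxcl9 and Cxcl10, each under totals without the 50 most abundant genes and under the GC and length correction. No paired analysis was possible because each genotype has 1 library, and no replicate could be left out for the same reason. Depth limits Cxcr3, with 41 and 20 reads, and Cxcl3, Cxcl5 and Cxcl11, of which none has more than 174 reads in a library.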
